A study of Mus musculus with 2 samples.

Results

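The miR-378 family was followed in small RNA libraries from the mouse heart. Its genes Mir378a, Mir378b, Mir378c and Mir378d were taken by their symbols in release M21 of the GENCODE annotation, without use of any measured value, and they are 4 of the 2202 microRNA genes counted. The tissue was heart of female mice of the strain B6CASTF1/J, an F1 hybrid of C57BL/6J and CAST/EiJ, at an age of 2 months. The part of the heart is not given. The labels describe no treatment and no contrasting condition, so both libraries form 1 group of 2 replicates. They are numbered as separate females but carry the same donor label. The spread between them may therefore be partly or wholly technical and hold no difference between animals.

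MicroRNAs are cut from hairpin transcripts to a short mature strand, which guides an Argonaute protein to messenger RNAs through its seed, the bases near its 5′ end. Mir378a lies inside Ppargc1b, the gene of PGC-1 beta, a coactivator that works with nuclear receptors to switch on genes of mitochondrial respiration and fatty acid oxidation. In mice the products of Mir378a are known to restrain oxidative metabolism, with carnitine O-acetyltransferase and the Mediator subunit MED13 among their targets. In heart muscle cells miR-378 has been shown to repress Igf1r and parts of the growth signalling that drives hypertrophy. Mir378b, Mir378c and Mir378d are paralogs whose mature strands resemble that of Mir378a and whose roles are not described here.

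The mature strands of the 3 paralogs are shown first, since differences of single bases decide to which gene a short read can be assigned. They are taken from RefSeq (build GRCm38.p6), are written 5′ to 3′, and have the seed, bases 2 to 8, in capitals.
miR-378b: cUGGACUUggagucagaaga
miR-378c: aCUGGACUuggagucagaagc
miR-378d: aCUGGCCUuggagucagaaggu

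The 3 strands differed from each other in their seeds. Counted from the 5′ end of miR-378c, miR-378d carried the substitutions A6C, which lies within the seed, and C21G. In miR-378b the strand begins at the second base of miR-378c, so its seed window is displaced by 1 base, and it carried the single substitution C21A over 20 compared bases. None of the 3 seeds occurred in another of the 1738 mature microRNAs listed in the RefSeq table used. Mir378a is not among its entries, and the Mir378a hairpin holds bases 1 to 20 of mature miR-378c, seed included, so the seed of miR-378c is not its own within the family. Each whole mature strand was found in only 1 of the 141767 annotated transcripts searched on both strands, that of its own hairpin.

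The hairpins of the same paralogs are shown because the mature strand does not sit at the same place in them. They are given 5′ to 3′ with the mature strand in capitals.
Mir378b, chr11:88352773-88352864, plus strand: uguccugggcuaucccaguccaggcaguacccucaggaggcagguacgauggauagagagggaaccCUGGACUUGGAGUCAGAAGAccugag
Mir378c, chr14:46954830-46954928, minus strand: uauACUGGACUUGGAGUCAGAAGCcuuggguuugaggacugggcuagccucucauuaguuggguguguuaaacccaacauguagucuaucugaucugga
Mir378d, chr10:126710282-126710391, minus strand: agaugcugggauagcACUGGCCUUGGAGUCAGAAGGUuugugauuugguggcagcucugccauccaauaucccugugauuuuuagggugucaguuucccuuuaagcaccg

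In Mir378b the mature strand occupied bases 67 to 86 of 92, toward the 3′ end of the hairpin. In Mir378c it occupied bases 4 to 24 of 99 and in Mir378d bases 16 to 37 of 110, both toward the 5′ end. The Mir378a hairpin (chr18:61397835-61397900, minus strand) is the shortest, at 66 bases. Its longest exact match to Mir378c was a stretch of 20 bases, at bases 43 to 62 of the Mir378a hairpin and covering bases 1 to 20 of mature miR-378c. With Mir378b it shared 19 bases, which are bases 1 to 19 of mature miR-378b, and with Mir378d 15 bases, which are bases 7 to 21 of mature miR-378d. Mir378a and Mir378b thus held the common stretch toward the 3′ end, and Mir378c and Mir378d toward the 5′ end. Mir378b and Mir378c shared 19 bases with each other, and each shared 14 with Mir378d.

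**Figure D1:**
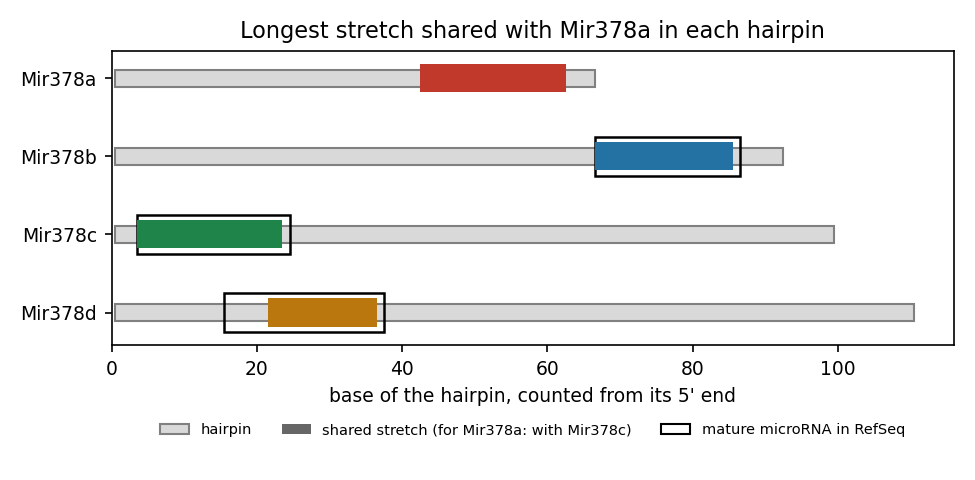
Position of the longest exact stretch shared with Mir378a in each miR-378 hairpin, in bases from the 5′ end of the hairpin. Grey bars are hairpins to scale, filled blocks are the shared stretches (for Mir378a, the 20 bases shared with Mir378c) and open boxes are the RefSeq mature strands. The block lies toward the 3′ end of Mir378a and Mir378b and toward the 5′ end of Mir378c and Mir378d.

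These matches bear on what the counts can show, because a read with more than 1 possible place was assigned to no gene. Such reads made up 49.5% of the library of replicate 1 and 42.7% of replicate 2. At a length of 20 bases, Mir378a and Mir378c were 2 of 4 members that shared a stretch with a hairpin at another locus, beside 49.4% of all 2202 hairpins. Among genes with at least 10 counts in both libraries, 70 of 306 shared one. A read of Mir378a that lies wholly within the shared stretch cannot be told from one of Mir378c, so the levels of both are uncertain in that respect. Mir378d had no stretch of 18 bases in common with another hairpin.

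The libraries held 8069273 and 7995058 reads, of which 2424441 in replicate 1 and 2770301 in replicate 2 fell on a microRNA gene on its own strand. Levels are given as CPM, counts scaled to a total of 1000000 own-strand reads per library. A read covers most of a mature strand, so counts were not divided by gene length. The differing efficiency with which small RNAs enter a library was not corrected for. At this depth 1 count was 0.412 CPM in replicate 1 and 0.361 CPM in replicate 2, and a gene with at least 10 counts in both libraries was called detected, which 306 genes were. Intervals are exact at 95% and cover counting error only. Of the 7 genes of the cardiac muscle list 4 were detected: Mir208a with 3739 and 16249 counts, Mir499 with 10556 and 7316, Mir208b with 204 and 109 and Mir1a-2 with 141 and 67. Mir133a-1 (11 and 5 counts), Mir133a-2 (5 and 9) and Mir1a-1 (6 and 5) were not, and lay below the liver marker Mir122 with 98 and 48. Reads with more than 1 possible place enter none of these counts, and how many of them belong to genes of this list was not tested.

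Mir378a was the dominant gene of the family. It had 251135 counts in replicate 1 and 260986 in replicate 2, which is 103585 CPM (103180 to 103991) and 94209 CPM (93847 to 94571). By these counts, which leave out reads that mapped to several places, it ranked 2 among all genes in each library. Its mean was 98897 ± 6630 CPM (SD, n = 2), so the SD was 6.70% of the mean, the sixth smallest of the 20 most abundant genes, where the median was 17.8%.

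Mir378d, the next in order, had 338 counts in replicate 1 and 409 in replicate 2, or 139 CPM (125 to 155) and 148 CPM (134 to 163). Its mean of 144 ± 5.82 CPM (SD, n = 2) placed it at rank 130 of the 306 detected genes. It had the smallest relative SD of the family, 4.05%, but the counting intervals of the 2 libraries overlapped, so this says little about stability.

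Mir378c had 45 counts in replicate 1 and 69 in replicate 2. These are 18.6 CPM (13.5 to 24.8) and 24.9 CPM (19.4 to 31.5), with a mean of 21.7 ± 4.49 CPM (SD, n = 2) and rank 217. Mir378b was lowest, with 16 counts in replicate 1 and 22 in replicate 2. These are 6.60 CPM (3.77 to 10.7) and 7.94 CPM (4.98 to 12.0), with a mean of 7.27 ± 0.949 CPM (SD, n = 2) and rank 278. All 4 members were thus detected, and in both libraries the order by counts was Mir378a, Mir378d, Mir378c and Mir378b. Neither the values nor the counting intervals of neighbours in that order overlapped. Whether some reads counted for Mir378b, Mir378c and Mir378d were Mir378a reads with an altered base or end was not tested.

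**Figure D2:**
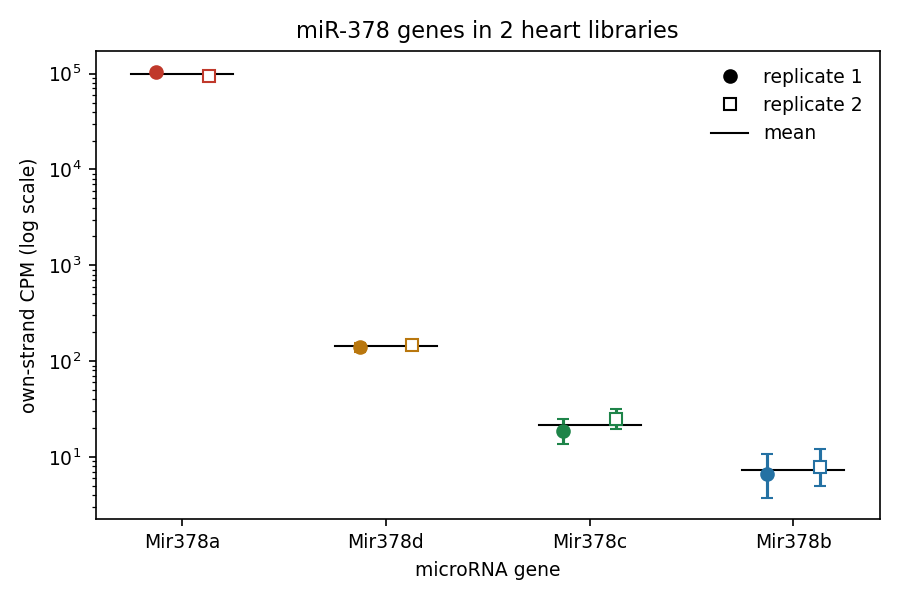
Own-strand CPM of the 4 miR-378 genes (log axis) in replicate 1 (filled circles) and replicate 2 (open squares), with exact 95% counting intervals as bars and the mean as a line. Mir378a lies near 98897 CPM and the other genes at means of 144, 21.7 and 7.27 CPM, and no interval of 1 gene meets that of the next.

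The steps between neighbours in the order were of very different size. Mir378a exceeded Mir378d 743-fold in replicate 1 (668 to 829) and 638-fold in replicate 2 (579 to 705). Mir378d exceeded Mir378c 7.51-fold in replicate 1 (5.49 to 10.5) and 5.93-fold in replicate 2 (4.58 to 7.77). Mir378c exceeded Mir378b 2.81-fold in replicate 1 (1.56 to 5.33) and 3.14-fold in replicate 2 (1.92 to 5.32). For each of these ratios the intervals of the libraries overlapped.

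Seen from the family total, the paralogs were a trace. Summed over the 4 genes, the share of counts was 10.4% in replicate 1 (10.3 to 10.4) and 9.44% in replicate 2 (9.40 to 9.47). Mir378a made up 99.8% of this in each library. Mir378b, Mir378c and Mir378d together gave 399 counts in replicate 1, or 0.159% of the family (0.143 to 0.175), and 500 counts in replicate 2, or 0.191% (0.175 to 0.209). Per 1000000 reads of Mir378a, there were 1346 of Mir378d in replicate 1 and 1567 in replicate 2. For Mir378c there were 179 in replicate 1 and 264 in replicate 2, and for Mir378b 63.7 and 84.3.

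**Figure D3:**
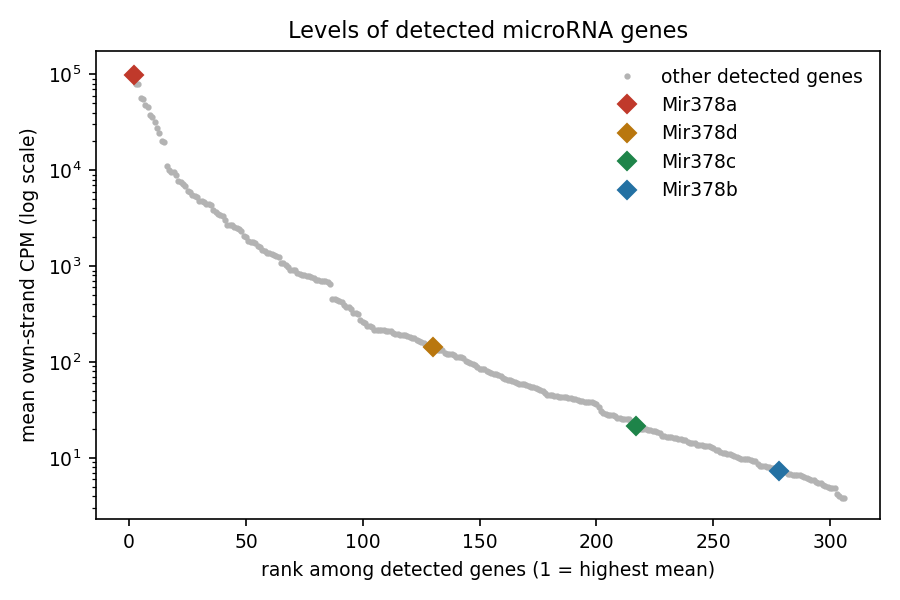
Mean own-strand CPM (log axis) of the 306 detected microRNA genes against their rank, with the 4 miR-378 genes as coloured diamonds. Mir378a stands at rank 2, Mir378d at 130, Mir378c at 217 and Mir378b at 278, so the family spans the detected range.

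Mir378a is covered on the opposite strand by another annotated microRNA gene, Gm25301 (chr18:61397813-61397925, plus strand), whose 113 bases contain the reverse complement of the whole Mir378a hairpin. All reads at this place came from a single strand. It is taken as that of Mir378a because the unlabelled strand columns were identified from their values. The count on the strand opposite to Mir378a was 0 in both libraries. Taking 3 reads as an approximate upper limit, this allows up to 0.00119% of the reads in replicate 1 and 0.00115% in replicate 2. Gm25301 correspondingly had 0 own-strand counts in each library and 251136 and 260986 counts on the strand opposite to it, 1 more than Mir378a in replicate 1 and none more in replicate 2. Mir378b, Mir378c and Mir378d likewise had 0 opposite-strand counts in both libraries. With so few reads the same approximate limit allows up to 18.8% for Mir378b in replicate 1.

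Because of this overlap the level of Mir378a depends wholly on the strand-specific count. In the column that counts reads on either strand, Mir378a had 0 counts in both libraries, while Mir378b, Mir378c and Mir378d kept their values. The reads that overlapped genes of both strands were set aside there as ambiguous, 518508 in replicate 1 and 806523 in replicate 2, and the number of Mir378a reads equals 48.4% of these in replicate 1 and 32.4% in replicate 2. In all, 32 pairs of microRNA genes overlapped on opposite strands, of which 11 had at least 1000 counts over both libraries. Mir378a led these by count, followed by Mir126a with 178568 and 236222 counts and Mir451a with 18950 and 240538. The gene on the minor strand was at 0 in both libraries in 7 of the 11 pairs, that of Mir378a among them. The pair Mir486 and Mir3107 differed, with 3.98% of its reads on the minor strand in replicate 1 and 3.28% in replicate 2.

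The libraries were compared to see how stable each member's level was. For each gene the counts were set against the library totals in a two-sided exact binomial test, and p-values were adjusted by the Benjamini-Hochberg method over 306 genes. With 1 library on each side it compares these libraries, and neither animals nor conditions. Of the 4 members 1 passed, where 61.1% of all detected genes did, 41.5% higher and 19.6% lower in replicate 1. That split depended on the scaling: 127 genes were higher and 60 lower with library totals, 84 and 97 with TMM factors, and 88 and 94 with DESeq2 size factors. None of the 4 also differed by at least 1.5-fold, where 36.6% of all detected genes did. A difference of a given size passes this test more easily at high counts. Mir378b, with 16 and 22 counts, Mir378c, with 45 and 69, and Mir378d, with 338 and 409, had few beside Mir378a. Not passing therefore does not show a stable level.

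Mir378a was the member that passed, at 1.10-fold of replicate 1 over replicate 2 (1.09 to 1.11; exact binomial test, adjusted p = 3.1e-251). The size is small, and 84.3% of detected genes had a larger log2 ratio in either direction. Its direction depended on the scaling: the log2 ratio was 0.14 with library totals, -0.082 with TMM factors and -0.054 with DESeq2 size factors, so no direction held. Relative to all reads of the library, Mir378a made up 3.11% in replicate 1 and 3.26% in replicate 2. Over all detected genes the median log2 ratio was 0.19 with library totals, -0.03 with TMM factors and 0 with DESeq2 size factors.

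The other members did not pass. Mir378d stood at 0.944-fold of replicate 1 over replicate 2 (0.815 to 1.09; exact binomial test, adjusted p = 0.53), Mir378c at 0.745-fold (0.50 to 1.10; adjusted p = 0.19) and Mir378b at 0.831-fold (0.408 to 1.66; adjusted p = 0.71). With TMM factors Mir378d passed at a log2 ratio of -0.30 (exact binomial test, adjusted p = 0.0094) and Mir378c at -0.64 (adjusted p = 0.033). Under edgeR's exact test with the common dispersion no member passed (adjusted p = 1 for each), and 2 genes, 0.654%, passed in all. At an unadjusted p under 0.05 the same edgeR test counted 17 of 306 genes. The dispersion was estimated from the difference between these same libraries, so few genes can pass by construction.

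**Figure D4:**
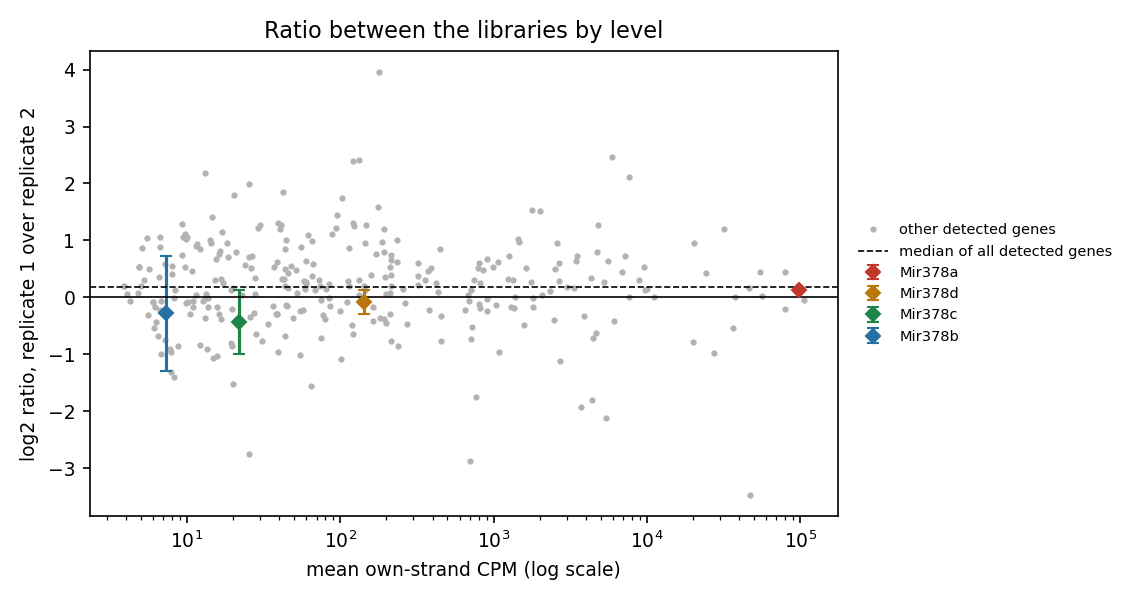
Log2 ratio of replicate 1 over replicate 2 against mean own-strand CPM (log axis) for the detected microRNA genes, with the miR-378 genes as diamonds and their exact 95% counting intervals as bars. The solid line marks equal CPM and the dashed line the median log2 ratio of 0.19. Mir378a lies at 0.14, between the lines, and Mir378d, Mir378c and Mir378b lie at -0.08, -0.42 and -0.27, with intervals that include 0.

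The genomic settings of the members differed. Mir378a lies in intron 1 of Ppargc1b, on the same strand, 2531 bases from the annotated start of Ppargc1b, and no exon of the 3 Ppargc1b transcripts that span it overlaps it. Mir378b lies in intron 11 of Msi2, which encodes an RNA-binding protein of the Musashi family, on the strand opposite to Msi2. Mir378c lies in an intron of Samd4, which encodes an RNA-binding protein related to Drosophila Smaug, also on the opposite strand, in an intron of 131260 bases. Mir378d lies in no annotated host, and the nearest protein-coding gene, Atp23, is 158036 bases away. Mir378a was thus the only member of the 4 that lies on the strand of a host gene. Host transcripts were not measured in these libraries.

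MicroRNA genes near the members were looked up on the same chromosome. Next to Mir378a after Gm25301, at 249925 bases, was Mir145a, and beyond it Mir143, both of smooth muscle, with 4731 and 2766 counts for Mir145a. The nearest gene to Mir378d within 1 Mb was Mir26a-2, 285139 bases away, with 817 counts in replicate 1 and 60 in replicate 2, while Mir378d had 338 and 409. The nearest to Mir378b was Mir142b, at 0 counts in both libraries, followed by Mir142 of blood cells with 3149 and 2327. Mir378c had no other counted microRNA gene within 1 Mb.

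Predicted folding describes the annotated hairpins and was tested in no comparison. For Mir378a the minimum free energy was -38.5 kcal/mol over 66 bases, or -0.583 per base, and 6.86% of the hairpins of detected genes were more stable per base. Mir378b had -0.338 per base, Mir378d -0.318 and Mir378c -0.273, against a median of -0.435 for detected genes, and 91.5%, 94.4% and 98.0% of these were more stable. The predicted structure of Mir378a, Mir378b and Mir378c had 1 end loop, and that of Mir378d had 3. Within the fold 15 of the 20 mature bases of miR-378b were paired, 15 of 21 in miR-378c and 13 of 22 in miR-378d. The annotated ends of a hairpin, which differ between entries, enter these values.

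**Figure D5:**
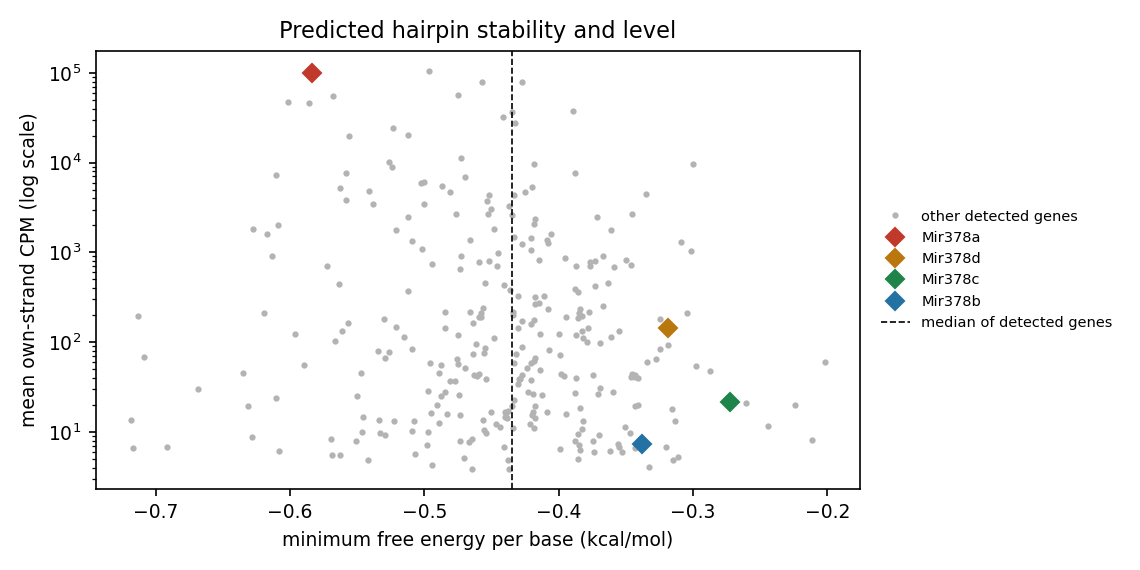
Mean own-strand CPM (log axis) against the predicted minimum free energy per base of the hairpin for the detected microRNA genes, with the miR-378 genes as diamonds. More negative values are more stable. Mir378a lies at -0.583 kcal/mol per base, left of the median of -0.435 (dashed), and the other 3 members lie right of it.

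By level over both libraries, the genes most like each member were taken as those with the smallest Euclidean distance in log2(CPM + 1). This is a likeness over 2 libraries that share their scale, and mainly one of abundance. For Mir378a they were Mirlet7i (distance 0.188; 104112 and 107276 CPM), Mirlet7g (0.504; 91856 and 67838 CPM) and Mir126a (0.513; 73653 and 85269 CPM). Mirlet7i stood directly above Mir378a by mean and Mirlet7g directly below. In replicate 1 Mirlet7i had 252413 counts against 251135 of Mir378a, and in replicate 2 it had 297186 against 260986.

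Around Mir378d the nearest were Mir467e (0.153), Mir671 (0.175) and Mir501 (0.197), each with 329 to 381 counts in a library. Around Mir378c they were Gm26117 (0.242), Mir7-1 (0.335) and Mir138-2 (0.344). Around Mir378b they were Mir7658, whose counts of 16 and 22 were the same as those of Mir378b, Mir491 (0.146) and Mir488 (0.186). At these low counts many genes lie within counting error of each other.

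Mir378a was also set beside a list of microRNA genes in hosts grouped here under muscle or metabolism. The grouping is broad, with hosts such as Lpp and Gpc1, and its fit was not tested. Of the 11 genes in the list 10 were detected, and Mir378a was above each of them. Mir139, in the phosphodiesterase gene Pde2a, came closest at 24394 ± 5057 CPM (SD, n = 2), which Mir378a exceeded 4.05-fold. Mir149, in the glypican gene Gpc1, followed at 19932 ± 7422 CPM. The myosin-hosted Mir208a, Mir499 and Mir208b stood at 3704 ± 3057, 3497 ± 1211 and 61.7 ± 31.7 CPM (SD, n = 2 each). Mir33, in the sterol regulator gene Srebf2, was at 13 and 28 counts, where Mir378b had 16 and 22. The 11 genes summed to 5.44% of replicate 1 and 5.89% of replicate 2, less than Mir378a alone at 10.4% and 9.42%. Reads that mapped to several places are left out of all these shares.

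Between the libraries, 8 of the 10 detected host-list genes passed the exact binomial test, 4 higher and 4 lower in replicate 1, beside the background of 61.1%. Mir103-2, with 28 and 19 counts, and Mir33, with 13 and 28, did not pass. The median log2 ratio of the list was 0.13, of the 4 miR-378 members -0.17, and of all detected genes 0.19. The median of the members is set by Mir378b and Mir378d, whose intervals include 0, and gives no direction of the family. Mir378a, with 99.8% of the family counts, stood at 0.14 with library totals. As for other cell types, the red cell genes Mir451a and Mir144 summed to 0.978% of replicate 1 and 9.37% of replicate 2. The part of such differences in the CPM of Mir378a was not tested. In whole tissue, fewer cells of a type and less RNA per cell cannot be told apart.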

How the data were processed

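Both libraries were deposited as raw read counts per microRNA gene, made by the authors on the assembly mm10 with GENCODE M21, per the labels and the text deposited with the tables. The aligner, counting tool and trimming were not given in the sources used here. Tables have no header, and the either-strand, own-strand and opposite-strand columns were identified from their values. The lines that name no gene held 70.0% of reads in replicate 1 and 65.3% in replicate 2 and were left out. All 2202 identifiers matched the annotation.

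Own-strand counts were scaled to CPM. Detection needed 10 counts in both libraries. The libraries were not copies of each other, with a chi-square of 1138 per degree of freedom over detected genes. edgeR's quasi-likelihood test has no residual degrees of freedom with 1 library a side, so an exact binomial test was used. The rule for the members used symbols and no measured value, but members, lists and tests were chosen with earlier results of these data known. Named genes were the members, Gm25301, the rank neighbours of Mir378a, the nearest genes by level, the nearest microRNA genes within 1 Mb, the host list and opposite-strand pairs above 1000 counts. Cell type markers formed a list of their own, and Gm27881 was named after its values were seen. Hairpins were folded with RNAfold 2.7.2. Python 3.11.15, scipy 1.17.1, R 4.3.3, edgeR 4.0.16 and DESeq2 1.42.0 were used.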

Additional observations from a re-analysis of the deposited data

Results flagged for a closer look

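Reads that mapped to several places are a signal outside the gene counts, and none of them enters a level given for the family. There were 3992614 in replicate 1 and 3410568 in replicate 2. How many of them belong to Mir378a or Mir378c, which share 20 bases, was not tested.

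A hairpin outside the family by name, Gm27881 (chr1:13262198-13262279, plus strand), also gave counts, 14 in replicate 1 and 17 in replicate 2. It shares an exact stretch of 16 bases with Mir378a and with Mir378d, and of 15 bases with Mir378b and with Mir378c. Its mean of 5.96 ± 0.256 CPM (SD, n = 2) lies below that of Mir378b.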

How the results depend on the processing

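The mean level of Mir378a was 0 CPM with either-strand counts, 31883 CPM with all reads as the denominator and 232637 CPM without the 10 most abundant other genes in the total, since the denominator changes by construction. It stayed within 1 SD with TMM or DESeq2 factors and ran from 94209 to 103585 CPM with a replicate left out. The family share was 0.0232% with either-strand counts, 3.19% of all reads, and 9.44% to 10.4% with a replicate left out. The own-strand share of Mir378a was 100% without either replicate. The log2 ratio of Mir378a reversed to -0.082 with TMM factors and -0.054 with DESeq2 size factors, and at 0.14 no longer passed with edgeR's common dispersion. Mir378d passed at -0.30 with TMM and -0.27 with DESeq2 factors, and Mir378c at -0.64 with TMM. With either set of factors every log2 ratio shifts by the same amount, by construction. The median gene went from 0.19 with totals to -0.03 with TMM factors. Thinning replicate 2 changed no member's direction or call, and either-strand counts changed none for Mir378b, Mir378c and Mir378d. The count of genes differing between the libraries was 187, and 2 with edgeR's common dispersion, which was estimated from these same libraries. TMM and DESeq2 factors gave 181 and 182 of 306 genes. With at least 5 counts in both libraries it was 191 of 355, and with at least 20 it was 180 of 262. With at least 1 count over both libraries it was 183 of 682. The count thus changed little, but the share called depended on the filter. A stretch of 18 bases was shared by 3 members and one of 22 bases by 0, against 2 at 20 bases. No paired analysis was possible because both libraries belong to 1 group.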
